A study of Trametes elegans with 15 samples.

Results

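Among the 949 genes listed for the white-rot fungus *Trametes elegans* in 5 culture media, 36 genes (3.79%) had their lowest level on pine, set apart from the other 4 media by the widest step in their profile. They were chosen from the deposited normalised log2 read counts, by sorting each gene's 5 values and keeping genes whose largest gap between neighbouring values was at least 1, a 2-fold step, with pine alone below it. The distance of these genes below the other media on pine is therefore what chose them, and it is described here without a test. Of 115 genes in which a gap of at least 1 set 1 medium alone below the rest, pine was that medium in 36, aspen in 2, wheat straw in 7, cellulose in 9 and maltose in 61. These counts hold for the deposited scale, on which pine and maltose had the lowest medians over all listed genes (8.11 and 8.10, against 8.86 to 9.21). For the media other than pine they were not repeated under other scalings.

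The samples were mycelium of strain BRFM 1663 (the titles of the samples call it *Artolenzites elegans*). It was grown in shaken flasks at 30 °C and harvested on day 3, with 3 samples per medium in the labels. Pine, aspen, wheat straw and microcrystalline cellulose (Avicel) were each added at 15 g/l. The pine, straw and cellulose media also held 2.5 g/l of maltose, whereas the amount of maltose beside aspen is not legible in the labels. The control medium held 20 g/l of maltose and no solid, so a difference between pine and maltose cultures goes with both the wood and the amount of sugar. The labels do not say that the samples of a medium were separate cultures, so the spread between libraries may be technical.

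White-rot fungi degrade lignin as well as the polysaccharides of wood, with secreted enzymes whose genes often respond to the carbon source. Pine is a softwood, with lignin built mainly of guaiacyl units, galactoglucomannan as the main hemicellulose, and resin. Aspen is a hardwood, with guaiacyl and syringyl lignin and mostly xylan as hemicellulose, and wheat straw is a grass tissue rich in arabinoxylan. Genes are given by number, since the deposited table pairs the numbers with no names or functions. No role is therefore stated for any of them, and no sequence is shown.

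The table holds 1 value per gene and medium. The number of libraries behind a value was settled on 20 low values per medium. These decoded as means of log2(normalised count + 1) over 3 libraries, except on straw, where they decoded over 2 although the labels list 3. Of all 4745 values, 4375 then gave exactly 1 set of reads. Whole reads per library could be recovered from the decimals for 14 libraries, called a, b and c within a medium by the order of their scaling factors only. Over the 789 genes recovered in every library these reads summed to 423465 to 528926 per library on pine and to 529111 to 1176606 per library in the other media. Such sums cover part of each library, and total depth is not known. Every SD below comes from the recovered libraries, and every level is a log2 value that is not corrected for gene length. In bulk mycelium, fewer cells that express a gene and less RNA of it per cell cannot be told apart.

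The 36 genes covered a wide range of levels. On pine they ran from 0.33 to 13.38 with a median of 5.51, against a median of 8.11 over all listed genes. Their medians in the other media were 7.86 on aspen, 9.57 on wheat straw, 9.68 on cellulose and 8.34 on maltose, against 8.91, 9.21, 8.86 and 8.10 over all listed genes in the same order. The genes thus lay low on pine, were somewhat above the listed genes on straw, cellulose and maltose, and lay below them on aspen.

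**Figure D1:**
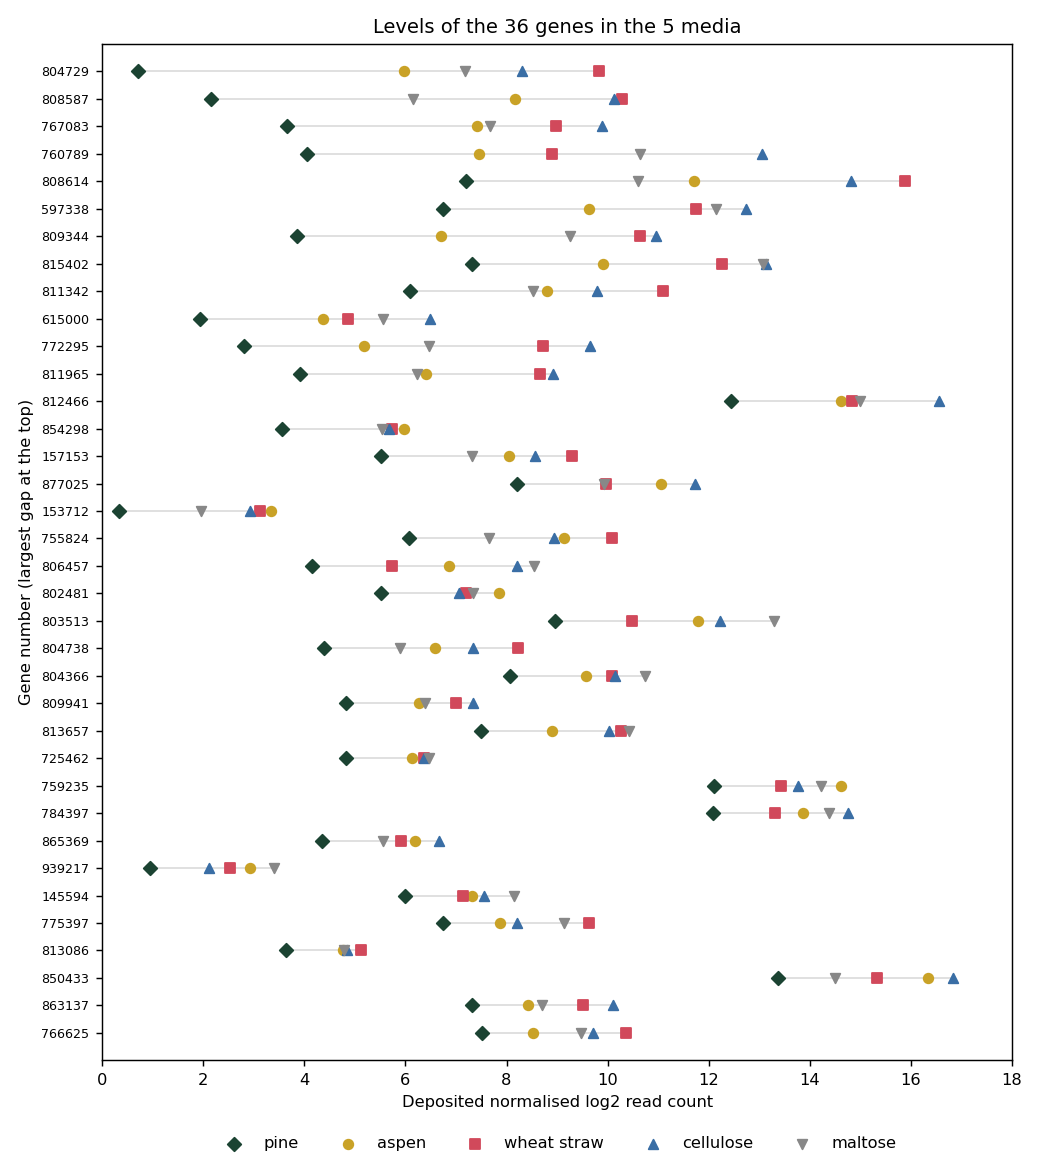
Deposited normalised log2 read counts (horizontal axis) of the 36 genes, 1 row per gene with the largest gap at the top, and 1 marker per medium. Pine is the leftmost marker in every row, the gap to the next marker runs from 5.28 at the top to 1.00 at the bottom, and the order of the other 4 markers changes from gene to gene.

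The gap between pine and the next lowest medium had a median of 1.57, a 2.97-fold step, and reached 5.28. It was at least 1.5 in 23 genes, at least 2 in 13 and at least 3 in 5. Measured to the highest medium, the distance above pine had a median of 3.64 and was at least 4 in 16 genes. Over all 949 listed genes it was at least 4 in 115, so most genes with so large a distance were not members. Pine was at least 1 below every other medium in all 36 genes by the way they were chosen, against 6.43% of all listed genes. Against single media, pine was lower by at least 1 than aspen in 26.4% of listed genes, than wheat straw in 29.4%, than cellulose in 27.6% and than maltose in 19.0%.

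The median distance of the 36 genes above pine was 2.45 on aspen, 2.79 on wheat straw, 3.00 on cellulose and 2.35 on maltose. Over all listed genes the same differences had medians of 0.30, 0.21, 0.09 and -0.08. The smallest distance was close to 1 in each medium, from 1.00 on aspen to 1.18 on cellulose, as the choice of genes sets it. The largest differed more, at 6.01 on aspen, 9.12 on wheat straw, 9.01 on cellulose and 6.59 on maltose.

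**Figure D2:**
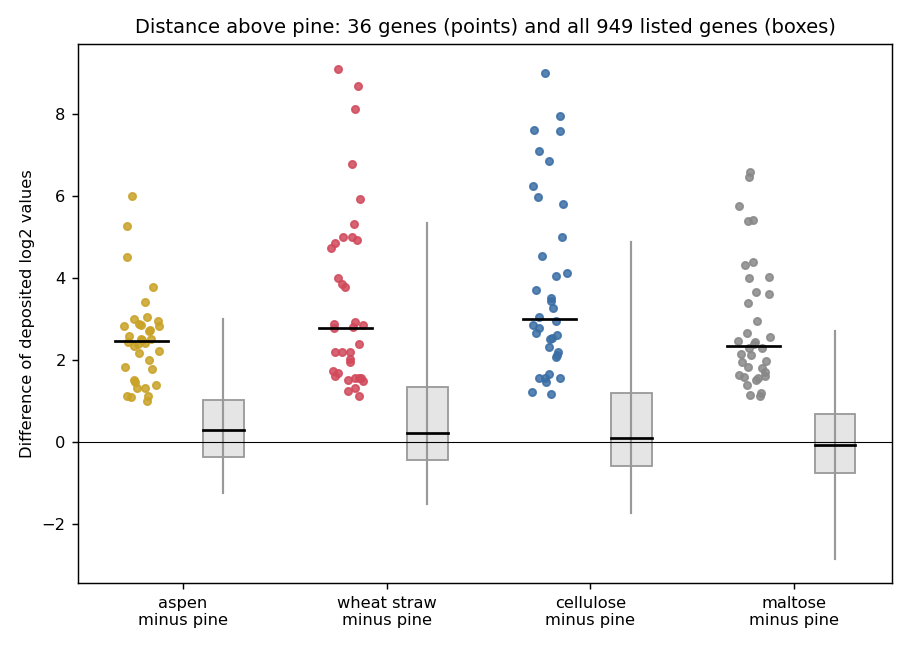
Difference of the deposited log2 values between each of the other 4 media and pine, with the 36 genes as points and all 949 listed genes as boxes (quartiles, with a line from the 5th to the 95th percentile and black bars at medians). The points lie at 1.00 or more by the choice of genes, and those of wheat straw and cellulose reach 9.12 and 9.01, further than those of aspen and maltose.

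Gene 804729 showed the widest gap. Its pine libraries held 1, 0 and 1 reads, which gave a level of 0.71 ± 0.62 (SD, n = 3). It stood at 5.98 ± 0.49 on aspen, 9.82 ± 0.49 (SD, n = 2) on wheat straw, 8.30 ± 0.30 on cellulose and 7.18 ± 0.72 on maltose. This gene was thus almost without reads on pine. It lay below the median of the listed genes on aspen, cellulose and maltose too, and above it on wheat straw. Against 208 reads in the aspen libraries, the 2 pine reads gave an aspen to pine ratio of 90.6 per scaled read, with a 95% exact interval of 24.8 to 753 that covers counting error only, since reads are not independent molecules.

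Gene 808587 stood at 2.30, 1.65 and 2.54 in pine libraries a, b and c. The corresponding values were 8.80, 7.98 and 7.75 on aspen, 10.22 and 10.34 on wheat straw, 10.17, 9.95 and 10.28 on cellulose, and 5.81, 6.13 and 6.53 on maltose. The closest other library, on maltose, lay 3.28 above the highest pine library. Its gap of 3.99 was a step up to maltose, so it was lowest on pine, next lowest on sugar alone and highest on straw and cellulose. On pine it had 10 reads over the libraries together.

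Gene 767083 was at 4.50, 3.41 and 3.04 on pine, where library a held 22 of its 37 reads. It was at 7.35, 7.29 and 7.60 on aspen, 8.89 and 9.05 on straw, 10.07, 10.11 and 9.47 on cellulose, and 7.14, 7.58 and 8.30 on maltose. All its pine libraries lay at least 2.65 below the others, and the gap was 3.77. Gene 760789 had the widest spread over the other media. It was at 4.50, 3.41 and 4.25 on pine, 7.90, 7.18 and 7.30 on aspen, 8.65 and 9.15 on straw, and 9.99, 10.50 and 11.44 on maltose, and its cellulose value of 13.06 was too high for reads to be recovered. Its profile was a staircase from pine through aspen, straw and maltose to cellulose, in which the step above pine (3.41) was the widest.

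Gene 808614 combined a gap of 3.40 with very high levels on straw and cellulose. It was at 7.81, 7.09 and 6.69 on pine, 12.08, 11.46 and 11.57 on aspen, 16.05 and 15.73 on straw, and 10.20, 10.56 and 11.04 on maltose, with a deposited value of 14.82 on cellulose. Straw therefore lay 8.70 above pine. Gene 597338 had close libraries on both woods, at 6.81, 6.77 and 6.67 on pine and 9.68, 9.57 and 9.65 on aspen. It reached 11.75 ± 0.29 (SD, n = 2) on straw, 12.73 ± 0.28 (SD, n = 3) on cellulose and 12.14 ± 0.53 (SD, n = 3) on maltose, so both woods were below the other media, pine by a further 2.89 under aspen.

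The same order, with pine lowest and aspen next, held for the genes 809344, 815402 and 615000. Gene 809344 stood at 3.86 ± 0.70 on pine, 6.71 ± 0.44 on aspen, 10.65 ± 0.13 on straw, 10.96 ± 0.17 on cellulose and 9.26 ± 0.55 on maltose (SD, n = 3, and 2 on straw). Gene 815402 stood at 7.31 ± 0.15 on pine, 9.90 ± 0.15 on aspen and 12.26 ± 0.16 on straw, with deposited values of 13.13 on cellulose and 13.08 on maltose. In 815402 the gap below aspen was 2.58 and the next step, up to straw, was nearly as wide. Gene 615000, with 9 reads over the pine libraries, was at 1.94 ± 0.79 on pine, 4.37 ± 0.37 on aspen, 4.87 ± 0.23 on straw, 6.49 ± 0.68 on cellulose and 5.56 ± 0.71 on maltose. Gene 811342 instead had maltose next lowest, at 6.09 ± 0.37 on pine, 8.81 ± 0.14 on aspen, 11.09 ± 0.19 on straw, 9.79 ± 0.13 on cellulose and 8.53 ± 0.32 on maltose.

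**Figure D3:**
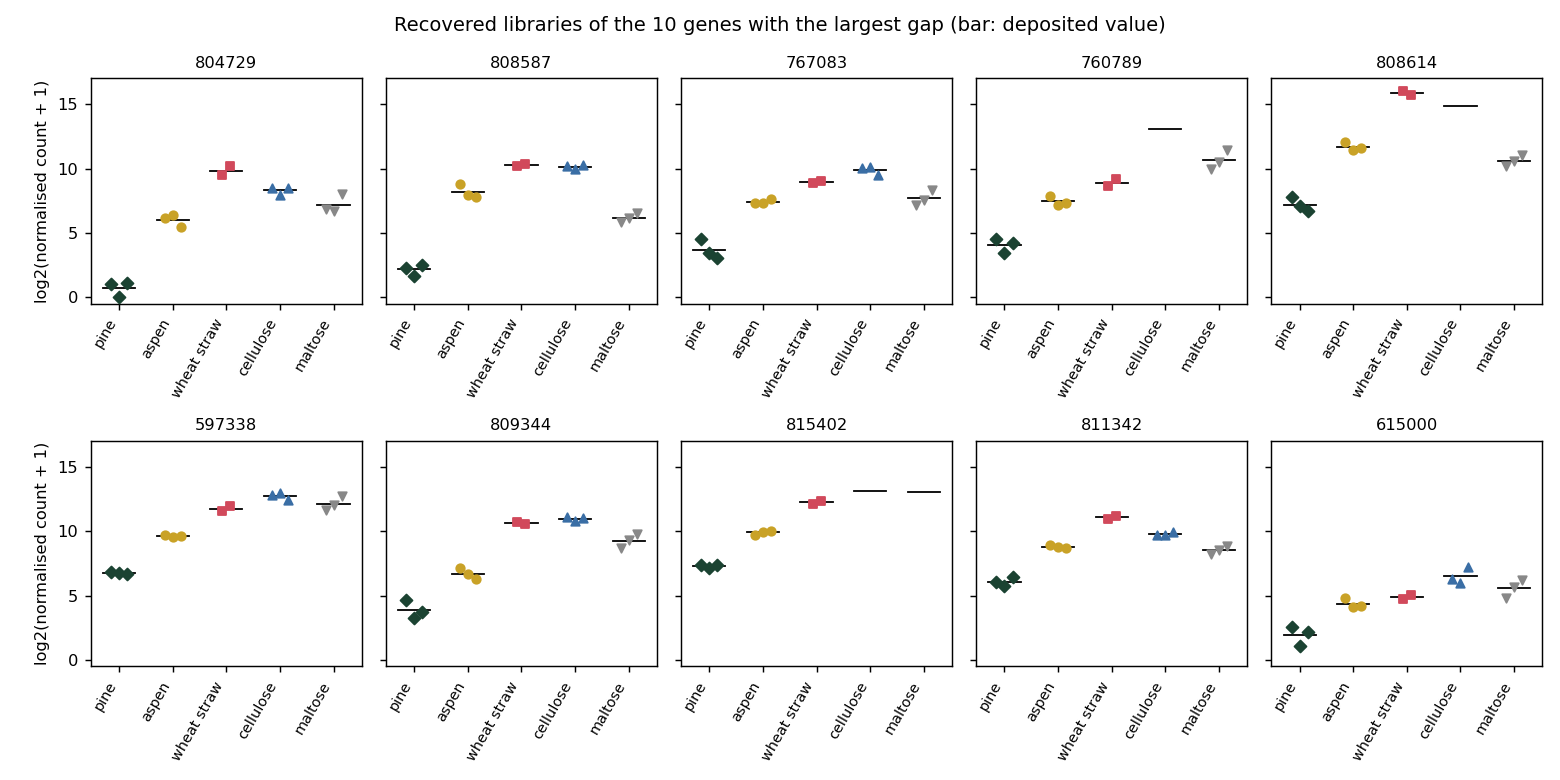
Levels of the 10 genes with the largest gap in each recovered library, as log2(normalised count + 1), with libraries a to c from left to right within a medium (2 on wheat straw) and a black bar at the deposited value. A bar without points marks a value too high for its reads to be recovered. In every panel the pine libraries lie below all points of the other media.

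By the mean over the other 4 media, the members with the highest read levels were 850433 and 812466, although 808614 stood above both on wheat straw. Gene 850433 was at 13.38 on pine, 16.34 on aspen, 15.33 on wheat straw, 16.83 on cellulose and 14.50 on maltose. It had the highest value of all listed genes on aspen and on cellulose, and ranked 61 of 949 on pine. Gene 812466 was at 12.29, 12.43 and 12.61 in the pine libraries, 14.61 on aspen, 14.84 on straw, 16.56 on cellulose and 15.00 on maltose, and ranked 101 on pine and 3 on cellulose. Both thus kept high read levels on pine, and the ranks carry no correction for gene length. The members 784397 and 759235 were of similar kind, at 12.09 ± 0.29 and 12.11 ± 0.54 (SD, n = 3) on pine and between 13.31 and 14.75 in the other media. Their gaps were 1.23 and 1.31.

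Summed over the 36 genes, normalised counts made up 1.07% of those of all listed genes on pine, 6.85% on aspen, 5.81% on wheat straw, 11.01% on cellulose and 5.69% on maltose. The pair 850433 and 812466 gave 0.631% on pine, 4.52% on aspen, 2.29% on straw, 7.13% on cellulose and 2.43% on maltose. Without that pair the remaining 34 genes gave 0.441% on pine, 2.34% on aspen, 3.51% on straw, 3.88% on cellulose and 3.27% on maltose. Every member was chosen for a low level on pine, so the low pine share of the pair and of the remaining genes follows from that choice. Much of the high share on cellulose came from the 2 highest genes.

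The description as genes low only on pine fits some members better than others. In 14 of the 36 genes the range over aspen, straw, cellulose and maltose was no wider than the gap, and in 22 it was wider. The gap made up between 32.5% and 81.8% of the full range over the 5 media, with a median of 48.1%. The range over the other 4 media was under 1 in 4 genes and at least 2 in 17. It was at least 1 in 32 members (88.9%), against 66.9% of all listed genes, and its median was 1.96 in the members and 1.45 over all listed genes.

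The genes 725462, 813086, 854298, 802481 and 145594 were the most even outside pine. Gene 725462 was at 4.83, 4.73 and 4.90 on pine, and its libraries lay between 6.07 and 6.64 in all other media. Gene 802481 was at 5.51 ± 0.20 on pine, 7.86 ± 0.21 on aspen, 7.19 ± 0.04 on straw, 7.06 ± 0.27 on cellulose and 7.34 ± 0.05 on maltose. In both, pine was the only medium that stood more than 1 away from any other. Gene 854298 was at 3.55 ± 0.38 on pine and at 5.97 ± 0.31 on aspen, 5.74 ± 0.69 on straw, 5.67 ± 0.39 on cellulose and 5.53 ± 0.19 on maltose. Gene 145594 was at 6.24, 6.34 and 5.43 in the pine libraries and at deposited values of 7.31 on aspen, 7.13 on straw, 7.56 on cellulose and 8.14 on maltose.

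In 813086 the libraries of pine and of other media overlapped. Its pine libraries were at 4.56, 3.55 and 2.81, and aspen library a at 4.37, cellulose library c at 4.01 and maltose library a at 4.46 lay below the highest of them. At the other end, the range over the other 4 media was 5.60 in 760789, 5.29 in 808614, 4.46 in 772295, 4.25 in 809344 and 4.12 in 808587. Gene 772295 was at 2.80 ± 0.35 on pine with 17 reads, 5.19 ± 0.50 on aspen, 8.73 ± 0.42 on straw, 9.65 ± 0.15 on cellulose and 6.47 ± 0.95 on maltose. Its step between maltose and straw was almost as wide as the gap of 2.39 that made it a member.

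**Figure D4:**
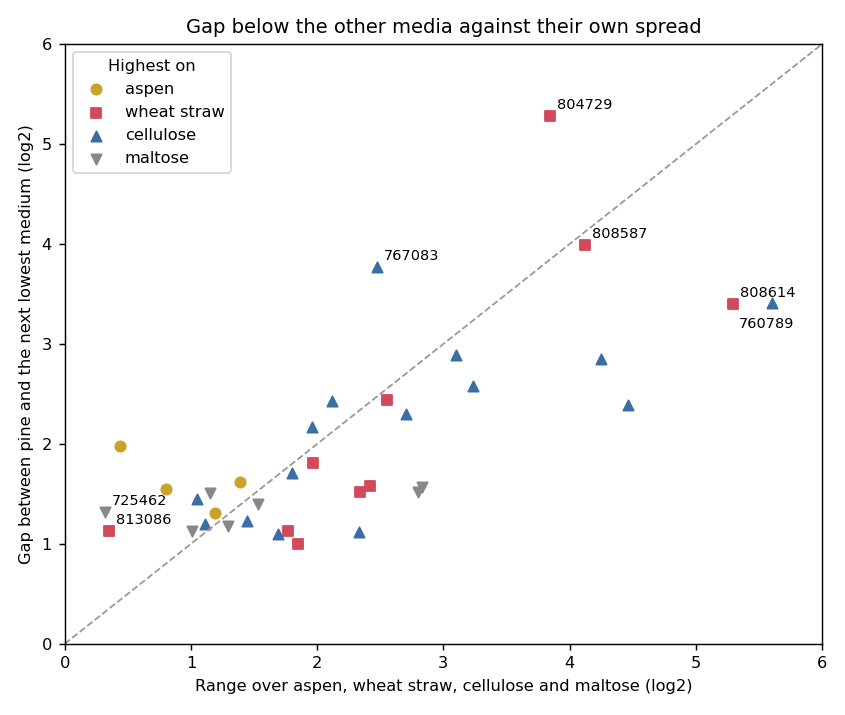
Gap between pine and the next lowest medium (vertical axis, log2) against the range over the other 4 media (horizontal axis, log2) for the 36 genes, with the marker showing the medium of the highest level and a dashed line where the 2 are equal. On or above the line lie 14 genes, led by 804729 with a gap of 5.28, and 22 lie below it, with 760789 furthest to the right at a range of 5.60.

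The order of the other 4 media varied. The highest level was on aspen in 4 genes, on wheat straw in 10, on cellulose in 15 and on maltose in 7. Over all listed genes, the highest of these 4 media was aspen for 26.8%, wheat straw for 28.8%, cellulose for 20.9% and maltose for 23.6%, against 11.1%, 27.8%, 41.7% and 19.4% of the 36 genes. These counts depended on the scaling of the media. After centring each medium on its median, 1 gene was highest on aspen, 6 on straw, 13 on cellulose and 16 on maltose, where maltose was highest for 55.3% of listed genes and cellulose for 13.5%. After quantile normalisation cellulose and maltose were highest in 13 genes each, against 14.8% and 46.0% of listed genes. On the deposited scale, the medium next above pine was aspen in 17 genes, wheat straw in 5, cellulose in 2 and maltose in 12. Aspen was the lowest of the 4 for 47.2% of the 36 genes, against 19.9% of all listed genes, and maltose was the lowest for 33.3%, against 42.8%. The rule limits how far these 4 media can stand apart, so these shares are descriptions of the chosen genes.

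The members that stood furthest above the next medium were different genes on each substrate. On aspen these were 802481, by 0.52, and 759235, by 0.39, neither of them a wide margin. On wheat straw they were 804729, by 1.52, and 811342, by 1.29, and on cellulose 760789, by 2.42, and 812466, by 1.56. On maltose, 803513 stood above by 1.06 and 804366 by 0.58. Gene 803513 was at 8.96 ± 0.19 on pine, 11.78 ± 0.14 on aspen, 10.49 ± 0.02 on straw, 12.23 ± 0.28 on cellulose and 13.29 on maltose, so it was lowest on pine, next lowest on straw and highest on sugar alone.

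Between aspen and cellulose the members leaned one way. Aspen was lower by at least 1 in 17 of 36 genes and higher in 0, against 17.2% and 15.0% of all listed genes. The difference was at least 1 and the aspen libraries lay wholly below the cellulose libraries in 13 of the 29 genes recovered in both media, against 15.8% of listed genes. Aspen was also lower than wheat straw by at least 1 in 17 genes and higher in 5, against 19.3% and 10.6% of listed genes. The libraries of these media did not overlap in any of the 17 lower genes, out of 32 recovered in both, against 20.7% of listed genes. The median differences over the 36 genes were -0.94 for aspen minus cellulose and -0.85 for aspen minus straw, against 0.08 and -0.05 over all listed genes.

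Against maltose, cellulose was higher by at least 1 in 17 members and lower in 2, where 28.2% and 12.2% of listed genes did so. Wheat straw was higher than maltose in 12 and lower in 5 by that measure, against 32.2% and 13.5%. Aspen was higher than maltose in 6 and lower in 12, against 29.5% and 14.8%. Straw was higher than cellulose in 5 and lower in 8, against 20.8% and 11.1%. The shares for straw against maltose were close to those of all listed genes. The counts against maltose share the maltose values, and those against cellulose share the cellulose values. All these pair counts are on the deposited scale and were not repeated under other scalings. Centring each medium on its median moved maltose up by 0.53, cellulose down by 0.22 and straw down by 0.57.

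Reads were recovered in all 14 libraries for 28 of the 36 genes, and on pine for 35. In the other 8 genes at least 1 value was too high, and for 850433 straw alone could be recovered. Every pine library lay below every library of the other media in 26 of the 28 genes, against 14.2% of the 789 listed genes that could be compared in this way, and the exceptions were 813086 and 939217. By single media, the pine libraries lay wholly below those of aspen in 31 of 32 genes, against 48.7% of listed genes, of wheat straw in 35 of 35, against 50.9%, of cellulose in 27 of 29, against 43.2%, and of maltose in 29 of 30, against 33.1%. The distance from the highest pine library to the lowest other library had a median of 1.17 and was at least 1 in 19 of the 28 genes. This distance was not computed for the listed genes. These are the libraries behind the values that chose the genes, so the count shows how far the libraries agree and tests nothing.

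Reads were few on pine for some members. Apart from 804729, gene 153712 held 1, 0 and 0 pine reads and gene 939217 held 0, 1 and 2. On pine 153712 stood at 0.33 ± 0.57 (SD, n = 3), with 3.34 ± 0.37 on aspen, 3.12 ± 0.76 (SD, n = 2) on straw, 2.93 ± 0.57 on cellulose and 1.95 ± 0.53 on maltose. Set against 10 reads on maltose, its 1 pine read gave a maltose to pine ratio of 8.36 per scaled read, with a 95% exact interval of 1.19 to 363. For 939217 the pine level was 0.94 ± 0.89 (SD, n = 3), and the other media lay between 2.11 and 3.40. Its cellulose to pine ratio, from 10 and 3 reads, was 3.26 with an interval of 0.841 to 18.5. These intervals cover counting error only and test nothing, since the same values chose the genes.

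The libraries of the maltose medium differed among themselves more for these genes than for the listed genes. The median SD between maltose libraries was 0.36 in the 28 members and 0.16 in the 789 listed genes recovered in every library, compared with 0.24 and 0.16 on pine, 0.22 and 0.16 on aspen, 0.13 and 0.13 on straw, and 0.26 and 0.17 on cellulose. Maltose library a was the lowest of its medium in 25 of the 30 members recovered on maltose, against 49.1% of 858 listed genes. Library c was the highest in 23 of them, against 41.8%. Library c lay at least 0.5 above library a in 20 of the 30 members, against 13.8% of listed genes, and the median distance was 0.65 in the members and 0.08 in the listed genes.

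The rule used the mean over the maltose libraries and not the differences between them. A high library c raises that mean, so the split is not independent of the choice of genes. Without maltose library c, 772295 and 811965 were no longer members. Maltose was the medium next above pine in 811965. In 772295 that medium was aspen, so its gap of 2.39 above pine did not involve maltose. Library c lay above library a in 29 of the 30 members, against 63.4% of listed genes. Examples are 12.71 against 11.67 in 597338, 9.79 against 8.69 in 809344 and 7.41 against 5.52 in 772295. In the other media with 3 libraries the members' median distance between c and a was -0.11 on pine, -0.20 on aspen and -0.23 on cellulose. Over the listed genes it was -0.06, -0.0 and -0.02 in the same order. On pine, library b was the lowest in 17 of 35 members and the highest in 3, against 29.0% and 29.1% of listed genes. Pine library c lay at least 0.5 above library b in 8 of 35 members, against 5.12% of listed genes. Some of these 8 held few reads in b and c, such as 804729 (0 and 1), 808587 (2 and 4) and 615000 (1 and 3). Others held more, such as 811342 (49 and 73) and 759235 (3016 and 5556). The listed genes are not matched for level, and their pine median was 8.11 against 5.51 in the members. What sets these libraries apart was not tested, and the library letters carry no replicate number. With maltose library c left out, 26 of the 28 fully recovered genes remained members, and with pine library b left out 24 did.

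**Figure D5:**
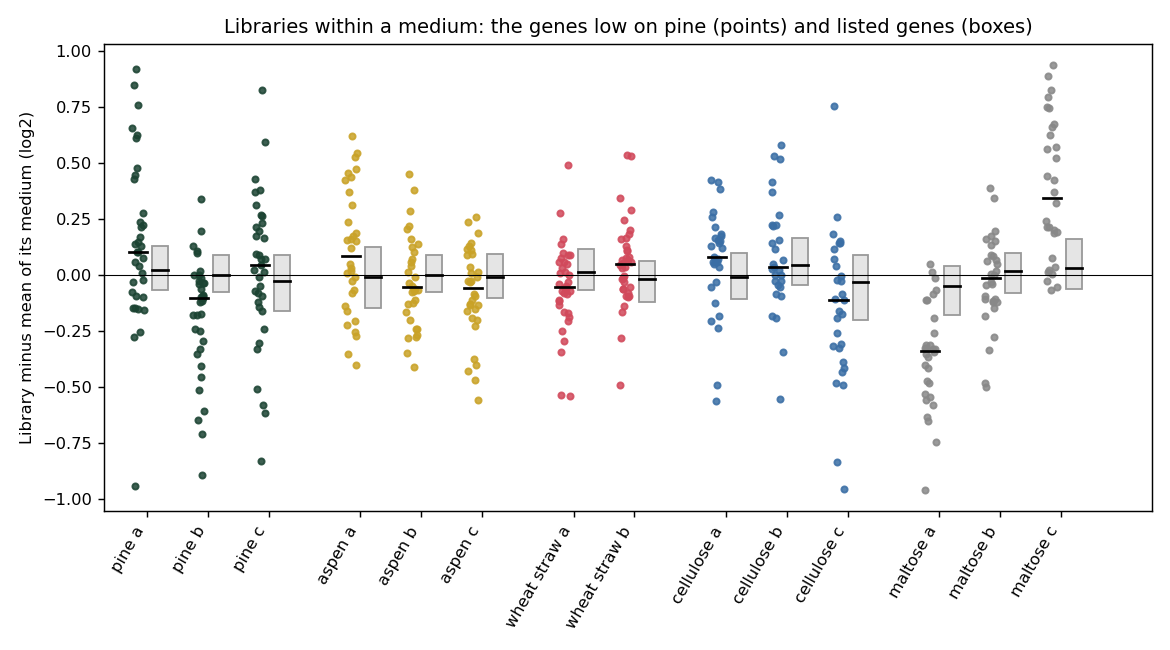
Level of each recovered library minus the mean of its medium (vertical axis, log2), with the members as points and the quartiles of the listed genes as boxes, and black bars at medians. The members' median lies at -0.34 in maltose library a and at 0.35 in maltose library c, and within 0.11 of 0 in every library of the other media.

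At the threshold, the members just inside were 766625 with a gap of 1.00, 863137 with 1.10, 850433 with 1.12, and 813086 and 775397 with 1.13 each. Just outside, with pine alone below the largest gap, were 814970 with a gap of 0.93, 808589 with 0.90, 767788 with 0.84, 926293 with 0.79 and 873411 with 0.76. The profile of 814970, at 7.25 on pine, 8.19 on aspen, 9.60 on straw, 9.71 on cellulose and 9.10 on maltose, was close in form to that of 766625, at 7.52, 8.52, 10.36, 9.71 and 9.47 in the same order. A further 25 genes were at least 1 lower on pine than in every other medium but had a wider gap elsewhere, so they are not among the 36. They were 765709, 879097 and others with pine shortfalls of up to 3.34.

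Membership depended on how the media were scaled against each other. Shifting each medium by the median of its differences from the gene means, which moved pine up by 0.14 and maltose up by 0.19, aspen and straw down by 0.10 each and cellulose down by 0.03, left 25 of the 36 genes. Centring each medium on its own median left 13, and so did quantile normalisation. In all 36 genes pine kept the lowest value under this shift and under median centring. Members under all 3 scalings numbered 12, among them 804729, 808587, 767083, 808614, 597338, 811342 and 812466. The high members 850433, 784397 and 759235 left under median centring and under quantile normalisation. Their distances below the next medium were then 0.85 and 0.94, 0.13 and 0.59, and 0.22 and 0.76. Under all 3 scalings 11 genes left. In 9 of them the distance below the next medium fell to between 0.03 and 0.61 after median centring and to between 0.31 and 0.87 after quantile normalisation, with the smallest after median centring in 145594. The other 2, 809344 and 815402, left although their distance below the next medium was still 2.06 or more in 809344 and 1.79 or more in 815402, because another gap became the largest. Under the shift by median differences, 806457 (1.33), 803513 (1.29) and 813657 (1.17), which are among the 9, also left with a distance above 1.

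The profiles nearest to that of 804729, by root mean square distance over the 5 media after centring each gene on its mean, were those of 809344 (0.97), 877740 (1.13) and 808614 (1.15). Gene 877740 was not a member, at 6.65 on pine, 9.03 on aspen, 13.73 on straw, 11.86 on cellulose and 12.68 on maltose. Nearest to 850433 were 877025 (0.28), 875190 (0.41) and 677712 (0.47). Of these, 877025 was a member, at 8.21 ± 0.04 on pine, 11.06 ± 0.08 on aspen, 9.96 ± 0.10 on straw and 11.72 ± 0.15 on cellulose and 9.92 ± 0.32 on maltose (SD, n = 3, and 2 on straw). It followed the order of 850433 on pine, aspen and cellulose at a level several steps lower, with straw and maltose nearly equal.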

How the data were processed

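Per the labels' protocols, libraries of poly A RNA were run in paired-end mode on an Illumina HiSeq 2500. TopHat2, HTSeq and DESeq 1.5 appear in the submitters' processing notes, with no role attached. Genome build, annotation and strand setting were not given in the sources used here. Per the file headers, the authors' deposited table gives normalised log2 read counts, with 1 value per gene and medium. How its genes were selected is not stated there.

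Whole reads were recovered with Python 3.11.15, numpy 2.4.6 and a compiled search. Scaling factors were sought under which 20 low values per medium decode as means over 2 or 3 libraries. With 3 libraries all 20 decoded on pine, aspen, cellulose and maltose, and with 2 all 20 decoded on straw. The other number of libraries decoded at most 3, which are the values the factors were solved from. A set of reads was accepted within 6e-14 (natural log) for levels under 10 and within 2e-13 for higher ones, limits settled from the residuals themselves. Of 4745 values, 4375 gave exactly 1 set, 37 gave several, and 333 at level 13 or more were not searched. Of decoys shifted by 1e-06, 0 of 2564 gave a set below level 9, 2 of 1059 from 9 to 11 and 29 of 682 from 11 to 13, so a few read sets above level 11 can be wrong. In tables simulated after pine and straw, all 860 and 949 genes with 1 set had the true reads.

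The 36 genes were chosen by the stated rule, and the rule and the comparisons were chosen with earlier results of these data known. Since the rule used all 5 values, no test was made, and exact intervals of read ratios describe counting error only. Differences are described by size (at least 1) and by overlap of libraries, beside all listed genes. The genes named are those with the largest gaps, the highest levels, the widest and narrowest ranges, the widest margin on each medium, the lowest pine values and the values nearest the threshold. Other genes were named after their values were seen, as the exceptions to a count, as members kept or lost under a scaling, or as examples. Alternatives were other gap thresholds, scalings, pseudocounts, a minimum level and leaving out each library.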

Additional observations from a re-analysis of the deposited data

How the results depend on the processing

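The count of 36 genes became 23 with a gap of at least 1.5 and 13 with a gap of at least 2, fewer by construction, and 61 where pine had only to be 1 below every other medium. It was 13 both after centring each medium on its median and after quantile normalisation, which raised pine by 0.53 and 0.37 and lowered straw by 0.57 and 0.41. The median shortfall of the 36 genes on pine, 1.57 as deposited, was then 0.98 and 0.91. After median centring, 1 gene was highest on aspen, 6 on straw and 16 on maltose, and after quantile normalisation 13 were highest on maltose. Cellulose was highest in 13 to 14 genes under the 3 scalings. Of the 28 genes recovered in all libraries, a pseudocount of 5 kept 22, and leaving out 1 library gave 25 to 29 members, of which at least 24 were shared. Over the same settings the median shortfall was 1.53 to 1.67, the genes highest on aspen 2 to 3, on straw 8 to 10, on cellulose 10 to 12 and on maltose 4 to 6, and the genes with no overlap of pine and other libraries 26 to 27. Of the 28 genes, 20 stayed members whichever library was left out. No paired analysis was possible because each column holds 1 value per medium and the recovered libraries carry no replicate number. Depth limits the members with few pine reads, and values of 13 or more have no library spread outside straw.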
